A study of Sus scrofa with 16 samples.

Results

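Collagen and stellate cell genes were followed in the liver of growing pigs. In all, 10 genes were sought (COL1A1, COL1A2, COL3A1, DCN, LUM, VIM, ACTA2, DES, TAGLN and SPARC), and a probe counted as theirs if its gene name, or the gene symbol or full name in its description, was one of them. This gave 35 of the 43603 probes on the array. Of these, 24 probes carried a symbol (1 for COL1A2, 5 for DCN, 7 for ACTA2, 4 for DES and 7 for SPARC) and 11 were named in full (1 each for COL1A1, COL1A2 and VIM, and 8 for LUM). COL3A1 and TAGLN had no probe by this rule and were not analysed here. All 35 probes, for 8 genes, exceeded background clearly in 8 or more of the 16 pigs, the condition for testing a probe. The array names 3928 gene symbols in all.

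The samples were livers of 8 pigs of the low-RFI line (RFIneg) and 8 pigs of the high-RFI line (RFIpl), all at 20 kg body weight and with free access to feed. RFI, residual feed intake, is the part of feed intake not accounted for by growth and maintenance, and the comparison asks how liver transcripts differ between lines of low and high RFI. Each pig had 1 Agilent array, and a level is the log2 signal minus the log2 of that array's 75th percentile. With 1 line per direction, RFI and any other difference between these lines cannot be told apart, and age and sex are not given in the sources used here.

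Hepatic stellate cells lie between hepatocytes and sinusoidal endothelium and store retinoids at rest. When activated they turn into myofibroblasts, which secrete fibrillar collagen and build contractile filaments. Portal fibroblasts, vascular smooth muscle cells and the capsule share many of these transcripts. In whole liver, fewer cells of a type and less RNA per cell cannot be told apart.

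The sequences of a few probes are shown because the results below turn on what each probe reads. The COL1A1 and COL1A2 probes lie in homologous stretches of their transcripts, and the capitals mark the 18 of 25 overlapping bases that they share.
COL1A1 A_72_P442299: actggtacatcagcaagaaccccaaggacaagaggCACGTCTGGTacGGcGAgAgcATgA
COL1A2 A_72_P107881: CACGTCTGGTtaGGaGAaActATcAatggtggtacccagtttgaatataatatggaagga
Among the other probes, 2 SPARC probes (A_72_P554191 and A_72_P130355) are the same 60-base sequence, so that they give a repeated measurement of one transcript on each array. The DCN probe below gave a reading in 1 pig that the other DCN probes did not give.
SPARC A_72_P554191: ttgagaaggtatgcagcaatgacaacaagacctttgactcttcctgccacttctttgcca
DCN A_72_P280399: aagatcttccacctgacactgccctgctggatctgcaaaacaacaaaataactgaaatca
A pair of LUM probes differ by G38T where they overlap, counted from the 5′ end of A_72_P293589 with its base first. Their 30 bases around it are shown, with the differing base in capitals.
LUM A_72_P293589: ttttatggttatggtGatttgtgagtccgt
LUM A_72_P455882: ttttatggttatggtTatttgtgagtccgt

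Between 28695 and 35126 probes per array were well above background, and array brightness, as the 75th percentile, was 320.0 to 508 units. The arrays sat on 4 slides of 4, each with pigs of both lines. The sample numbers in the submitters' labelling of the arrays form 2 series. Numbers below 50 belonged to pigs 1 to 4 of each line and those above 50 to pigs 5 to 8. The scanner software marked a quality measure as out of range on 5 arrays, those of RFIpl pigs 1, 2, 3, 6 and 8. The array of RFIpl pig 6 had the most probes well above background and the lowest 75th percentile. The lines themselves differed little, with 3 of 30097 probes called by limma at an adjusted p under 0.05 and 1640 at an unadjusted p under 0.05.

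None of the 8 genes, and none of their 35 probes, differed between RFIneg and RFIpl livers at an adjusted p under 0.05 (limma, Benjamini-Hochberg over all tested probes). The same share over all tested probes was 0.00997%. For none of the 35 probes did the lines fail to overlap, against 0.0432% of all probes. None reached an unadjusted p under 0.05 either, against 5.45% of all probes and 4.72% of all 3325 genes represented by their brightest tested probe. In 7 of the 8 genes the mean was lower in RFIneg, as it was in 45.7% of all genes, and 33 of 35 probes were lower, against 50.3% of all probes. The median change of the 8 genes was -0.15 on the log2 scale, against 0.015 over all genes. Without RFIpl pig 6 the median change was -0.015, 5 of the 8 genes and 23 of the 35 probes were lower, and no gene was called. With array noise as a covariate 2 of the 8 genes and 15 of the 35 probes were lower. Without the 5 arrays with a quality measure out of range, all of RFIpl pigs, 2 genes and 9 probes were lower. Adjusted p was 0.977 to 0.998 for the 8 genes.

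The type I collagen chains come first among the matrix genes. COL1A1, which supplies most of the chains of the collagen I trimer, ran between -0.95 and 0.39 with a median of -0.28 in RFIneg livers, against -1.08 to 1.53 with a median of -0.11 in RFIpl livers. Its change was -0.32 (SE 0.30, 95% interval -0.95 to 0.30), and -0.12 without RFIpl pig 6. The lines overlapped, with both the lowest and the highest pig in the RFIpl line.

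COL1A2, the partner chain, ran between 1.77 and 2.99 with a median of 2.32 in RFIneg livers, against 1.505 to 3.23 with a median of 2.58 in RFIpl livers. Its change was 0.055 (SE 0.27, 95% interval -0.51 to 0.62), and 0.17 without RFIpl pig 6. A dimmer COL1A2 probe, A_72_P192797, had a change of -0.19 (SE 0.23), and the levels of the pair of probes correlated at r = 0.714 over the 16 pigs. The direction of COL1A2 therefore differed between its probes, and neither change exceeded its error.

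DCN encodes decorin, a small proteoglycan that binds collagen fibrils and TGF-beta. It ran between 2.08 and 3.56 with a median of 2.51 in RFIneg livers, against 1.99 to 4.28 with a median of 3.005 in RFIpl livers. The change was -0.29 (SE 0.32, 95% interval -0.97 to 0.38), and -0.11 without RFIpl pig 6. The pigs varied far more than the line means: the SD of DCN over all 16 pigs was 0.69, above that of 91.8% of genes, and the lines overlapped.

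The 5 DCN probes correlated over pigs with a median r of 0.977 and a lowest r of 0.601. A_72_P280399 was at 2.79 in RFIneg pig 2, while the next highest RFIneg pig was at 0.16. The other 4 DCN probes placed RFIneg pig 2 within the range of the other pigs, and the difference between A_72_P280399 and their mean was 2.52 above its average over pigs in this pig. A_72_P280399 had a change of 0.23 (SE 0.44), whereas the other 4 DCN probes lay between -0.30 and -0.19.

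LUM encodes lumican, a proteoglycan of the same family, whose gene is the neighbour of DCN in the RefSeq gene table (assembly Sscrofa11.1). By its brightest probe, A_72_P665036, it ran between -1.34 and -0.56 with a median of -1.07 in RFIneg livers, against -1.55 to -0.17 with a median of -1.06 in RFIpl livers. The change was -0.11 (SE 0.19, 95% interval -0.51 to 0.29), and -0.0051 without RFIpl pig 6. RFIpl pigs 6 and 7 stood above the other pigs, and the remaining pigs of both lines overlapped. A_72_P665036 also resembles probes of the same strand that are not named as LUM. It shares 25 of 30 overlapping bases with A_72_P052226 (r = 0.897) and 24 of 30 with A_72_P197532 (r = 0.812). Whether A_72_P665036 also reads a transcript other than LUM was not tested.

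LUM was also the gene whose probes agreed least. Over all 28 pairs of its 8 probes the median r was 0.409, with a range of -0.197 to 0.958. The dim probes A_72_P293589, A_72_P455882 and A_72_P769870 followed each other (r 0.914 to 0.943) but not the 3 brightest probes (r 0.116 to 0.408). A further probe, A_72_P573664, followed both the dim probes (r 0.707 to 0.754) and the 3 brightest (r 0.693 to 0.810). The dim probes spread over several log2 units.

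The dimmest of these readings were in the RFIneg line. A_72_P769870 ran between -6.07 and -2.40 with a median of -5.13 in RFIneg livers, against -4.60 to -2.22 with a median of -3.44 in RFIpl livers. It was well above background in 4 of 8 RFIneg and 8 of 8 RFIpl pigs. Its fitted change of -1.01 (SE 0.56, adjusted p = 0.965 by limma) was not called, and it rests in part on RFIneg readings that were not well above background. RFIneg pigs 2, 4 and 8 read within the RFIpl range on all 3 dim probes, and RFIneg pig 6 was the lowest on each.

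**Figure D1:**
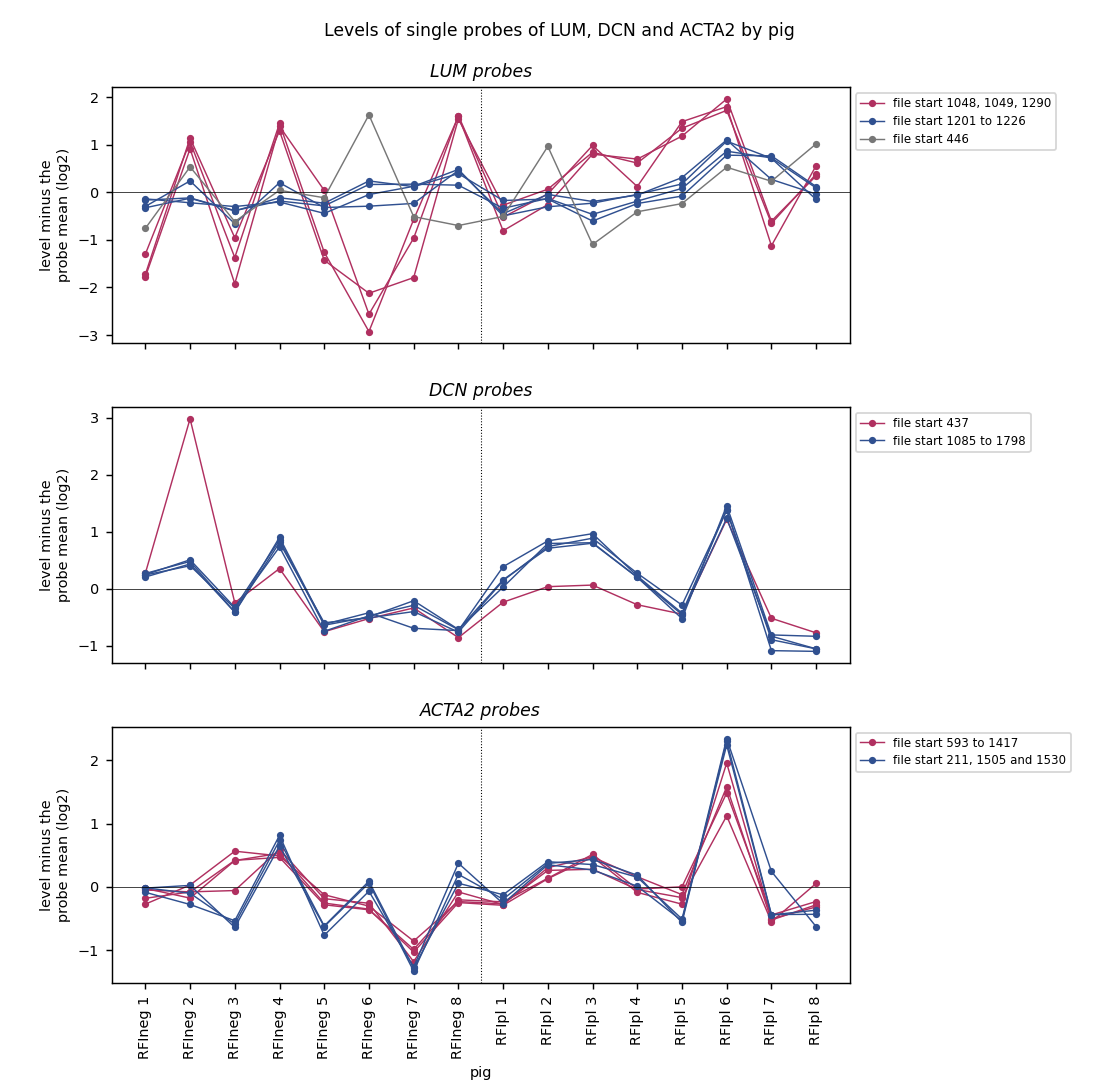
Levels of each LUM, DCN and ACTA2 probe minus its own mean (log2, vertical axis) in the 8 RFIneg pigs and the 8 RFIpl pigs (horizontal axis), 1 line a probe, coloured by the start position the files give for the probe. The 3 dim LUM probes swing together and apart from the 3 brightest, while A_72_P573664 follows both. In RFIneg pig 2, 1 DCN probe stands apart (level 2.79 before its mean is taken off), and RFIpl pig 6 is high in all 3 genes.

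SPARC encodes osteonectin, a matricellular protein that binds collagen. It ran between 3.15 and 4.28 with a median of 3.79 in RFIneg livers, against 3.33 to 4.58 with a median of 3.73 in RFIpl livers. The change was -0.048 (SE 0.18, 95% interval -0.43 to 0.33), turning to 0.060 without RFIpl pig 6, and the lines overlapped over most of their range. The pair of identical SPARC probes correlated at r = 0.959, and the SD of their difference was 0.11, against an SD between pigs of 0.37. This repeat covers noise between spots of an array, not noise between arrays, which is part of the SD between pigs.

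Among the cytoskeletal genes, ACTA2 encodes the smooth muscle actin that marks myofibroblasts and vascular smooth muscle. It ran between 4.04 and 5.46 with a median of 4.72 in RFIneg livers, against 4.35 to 6.02 with a median of 4.91 in RFIpl livers. The change was -0.17 (SE 0.23, 95% interval -0.65 to 0.30), and -0.026 without RFIpl pig 6. RFIpl pig 6 was highest and RFIneg pig 7 lowest, and the rest overlapped.

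All 7 ACTA2 probes had a lower mean in RFIneg, with changes of -0.45 to -0.17, and -0.15 to -0.026 without RFIpl pig 6. They correlated over pigs with a median r of 0.907. They parted most in RFIneg pig 3. There A_72_P556110 was at 5.46, the highest RFIneg value of that probe, while A_72_P070041 was at 3.01, below the RFIneg median of 3.65 for that probe.

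DES encodes desmin, the intermediate filament protein of muscle that also marks stellate cells in rodents. It ran between 3.14 and 3.52 with a median of 3.26 in RFIneg livers, against 3.08 to 4.52 with a median of 3.32 in RFIpl livers. The change was -0.14 (SE 0.17, 95% interval -0.49 to 0.22), and RFIpl pig 6 alone stood above 3.52. Without that pig the change was 0.020 (SE 0.095), so that its direction turned.

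VIM encodes vimentin, the intermediate filament protein of mesenchymal cells. It ran between 2.94 and 3.58 with a median of 3.26 in RFIneg livers, against 2.74 to 4.06 with a median of 3.57 in RFIpl livers. The change was -0.26 (SE 0.18, 95% interval -0.63 to 0.11), with the lowest adjusted p of the 8 genes, 0.977 by limma. The lines overlapped, although the RFIpl median was near the highest RFIneg pig.

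**Figure D2:**
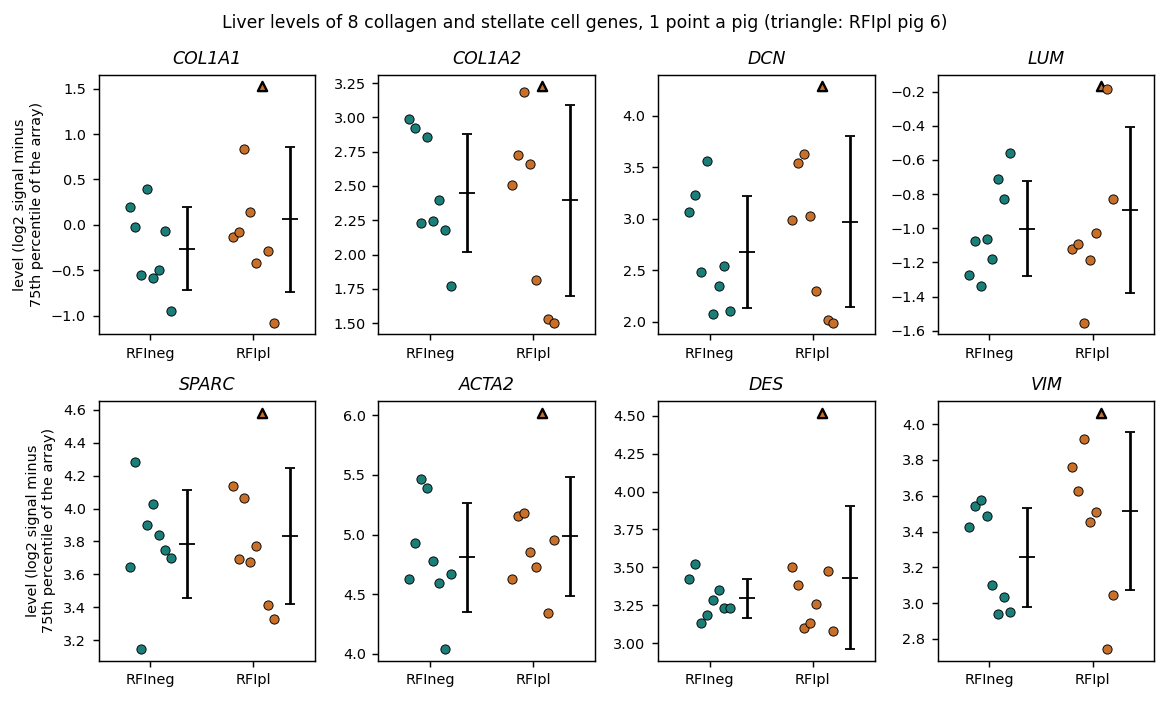
Level of each of the 8 genes (log2 signal minus the 75th percentile of the array, vertical axis) in RFIneg (left) and RFIpl (right) livers, 1 point a pig, with mean ± SD beside (n = 8 each). RFIpl pig 6, the triangle, is the highest pig for all 8 genes, and the lines overlap in each.

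RFIpl pig 6 had the highest level of all 8 genes and of 33 of the 35 probes. Its lead over the next pig was narrow for COL1A2 (3.23 against 3.18) and LUM (-0.169 against -0.182). Levels are scaled to array brightness, which was lowest in this pig. Before scaling it was highest for ACTA2, COL1A1, DCN and DES. RFIneg pig 2 was then higher for SPARC (8275 against 7672 units), and RFIpl pig 7 for LUM (342 against 285). RFIpl pig 3 was higher for VIM (6720 against 5354) and COL1A2 (4031 against 2993). Over all represented genes RFIpl pig 6 had the highest level for 16.2%. Its mean deviation over the 8 genes was 1.05 on the log2 scale. That of the other RFIpl pigs was -0.46 to 0.34, and that of the RFIneg pigs -0.34 to 0.26.

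Markers of muscle were also high in this pig. Of 7 tested skeletal muscle markers (MYH2 and MB were too dim to test), 4 were highest in RFIpl pig 6, namely ACTA1, TNNI2, TNNT3 and MYH1. The mean deviation of the 7 markers ran between -0.39 and 0.076 in RFIneg livers, against -0.45 to 0.92 in RFIpl livers, with RFIpl pig 6 highest. RFIpl pig 5 came next at 0.67, with a mean deviation of the member genes of -0.21. Among bile duct markers CFTR, the chloride channel, was highest in this pig (1 of 5). KRT8 was lowest in it (5.58, against a median of 6.20 in the other pigs), and EPCAM ranked 12 from the top. Among hepatocyte markers ALB and HP were highest in it (2 of 7), while APOA1 ranked 13. Over all represented genes the share highest in this pig was 16.2%. No tested marker of Kupffer cells (0 of 5), endothelium (0 of 7) or T and NK cells (0 of 7) was highest in it. The part of these cells, or of the array, in the member values was not tested.

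The slide of RFIpl pig 6, which also held RFIpl pig 1 and RFIneg pigs 2 and 7, gave a lower RFIneg mean for all 8 genes, with changes of -0.84 to -0.31. On the other slides 4, 5 and 4 of the 8 genes were lower, and the median changes were -0.066, -0.056 and -0.0023. Among pigs with sample numbers below 50 the median change was -0.084 (5 of 8 lower), and among those above 50, which include RFIpl pig 6, it was -0.32 (6 of 8 lower).

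**Figure D3:**
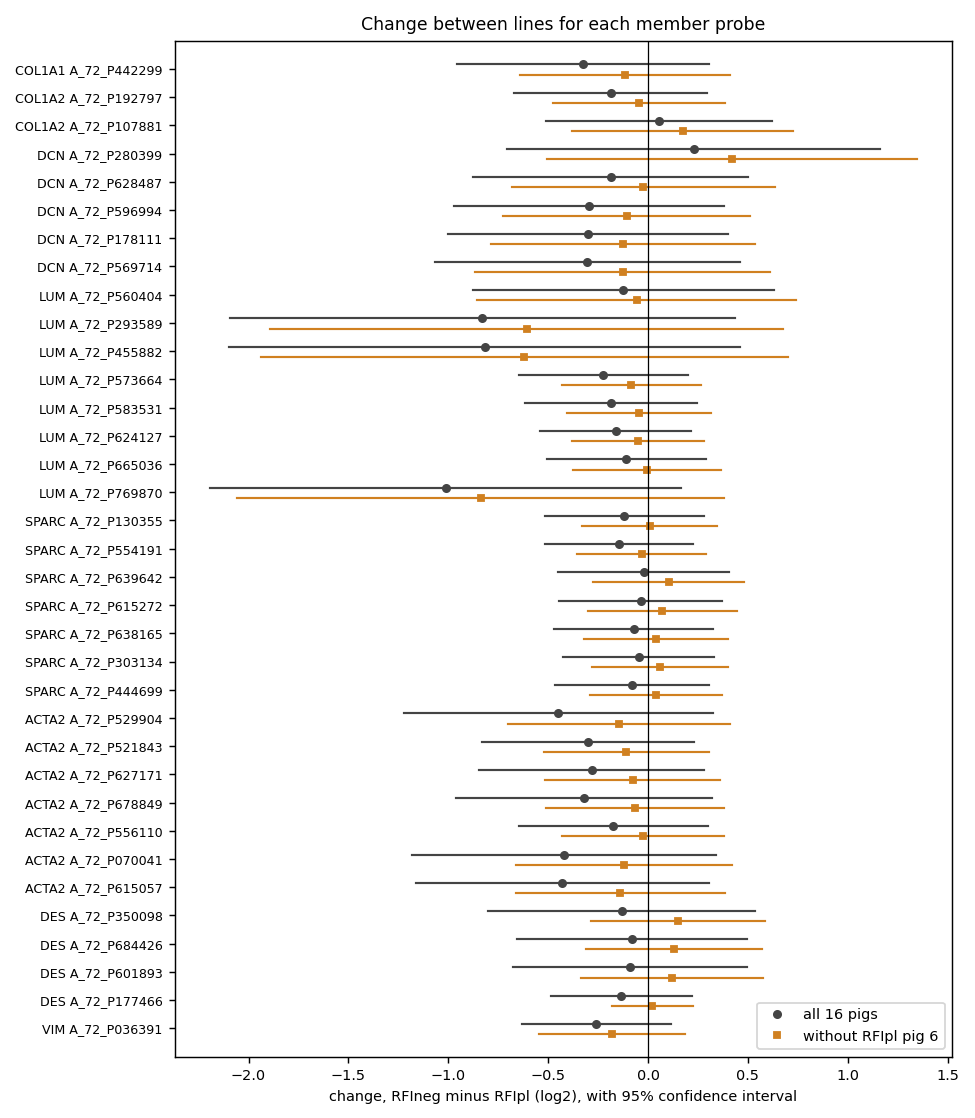
Change between lines, RFIneg minus RFIpl (log2, horizontal axis), with its 95% confidence interval for each of the 35 probes, over all 16 pigs (circles) and without RFIpl pig 6 (squares). Every interval includes 0, and each of the 35 changes is shifted towards higher RFIneg levels without that pig, where 23 of 35 are below 0.

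Levels of the members also moved together over all 16 pigs, and less so without RFIpl pig 6. Over the 16 pigs, 24 of the 28 gene pairs correlated positively, with a median r of 0.564, against a median of 0.0049 over all pairs of represented genes, of which 5.1% had an r at least as high. Without RFIpl pig 6 the median r was 0.329, and 18.1% of all gene pairs had an r at least as high. By permutation (100000 resamples, two-sided, Benjamini-Hochberg over the 28 pairs) 13 pairs passed an adjusted p of 0.05 for Pearson's r and 6 for Spearman's rho.

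The tightest group was DCN with the type I collagen chains. DCN and COL1A2 correlated at r = 0.905 and rho = 0.926 (permutation p = 1e-05 for each, the smallest the resamples can give, adjusted p = 0.00014). Without the 2 pigs farthest from the COL1A2 median, RFIpl pigs 7 and 8, r was 0.891. DCN and COL1A1 correlated at r = 0.900 and rho = 0.897 (permutation p = 1e-05, adjusted p = 0.00014), and at 0.836 without RFIpl pigs 6 and 8. COL1A1 and COL1A2 correlated at r = 0.823 and rho = 0.850 (permutation p = 4e-05, adjusted p = 0.00037), and at 0.778 without the same pigs. For all 3 genes RFIpl pig 6 was highest, RFIpl pig 3 second and RFIpl pig 8 lowest.

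VIM correlated with this group over the 16 pigs, with r = 0.840 to DCN (rho = 0.735, adjusted permutation p = 0.00042) and 0.758 to COL1A2 (rho = 0.674, adjusted permutation p = 0.00425). Within the series of numbers below 50 these were 0.291 and 0.164, and with the series means removed and without RFIpl pig 6 they were 0.262 and 0.120. SPARC correlated with COL1A1, COL1A2 and DCN at r = 0.634 to 0.658. Without the 2 pigs farthest from the median of the other gene, r fell to 0.329 with COL1A1, 0.503 with COL1A2 and 0.396 with DCN. The fall was smallest with COL1A2. SPARC with COL1A2 had r = 0.588 in pigs numbered below 50 and 0.951 in those above 50. The latter was the only pair called above 50 (adjusted exact permutation p = 0.0188). ACTA2 went most closely with VIM over the 16 pigs (r = 0.711, rho = 0.706, adjusted permutation p = 0.00532). For that pair r was 0.0998 within the series below 50. With the series means removed and without RFIpl pig 6 it was 0.227.

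DES correlated with SPARC (r = 0.652) and LUM (r = 0.591). Without RFIneg pig 2 and RFIpl pig 6, the 2 farthest from the DES median, these values were 0.229 and 0.354, so that both relations rested on those pigs. By its brightest probe LUM had r of -0.356 to COL1A2, 0.031 to COL1A1 and -0.133 to DCN, none of which passed the test. With each gene as the mean over its probes these values turned to 0.218, 0.329 and 0.360, none of them called, and all 28 pairs were positive.

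**Figure D4:**
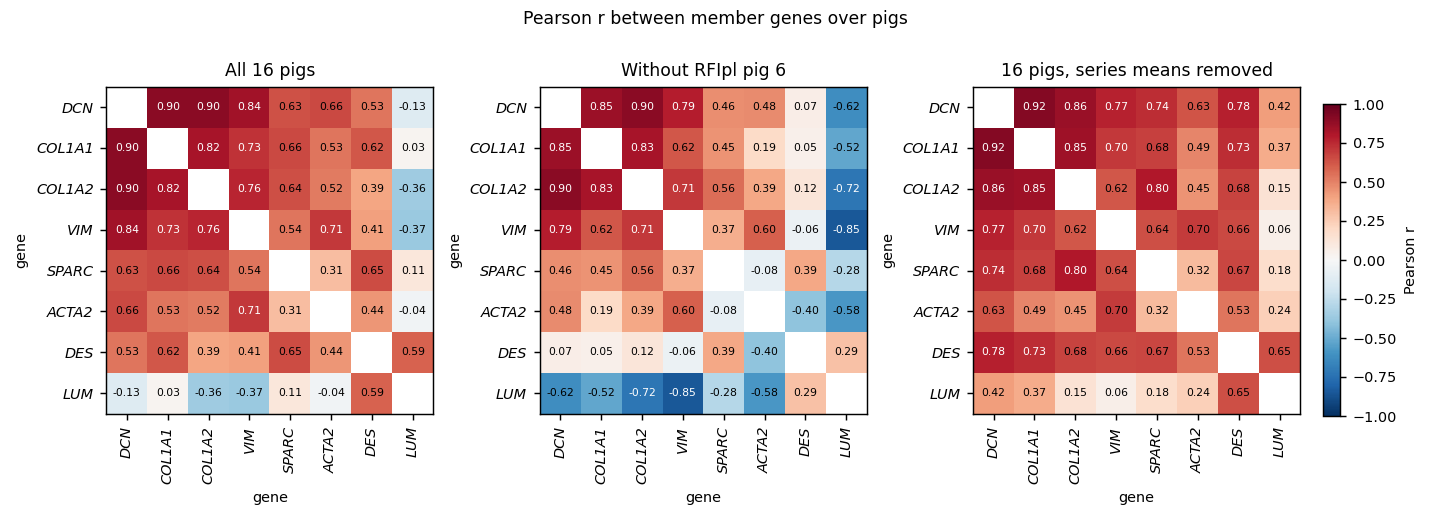
Pearson r of each pair of the 8 genes (both axes) over all 16 pigs (left), without RFIpl pig 6 (middle) and over 16 pigs after removing the means of the series of sample numbers (right), with red for positive and blue for negative values. The 3 pairs of DCN, COL1A1 and COL1A2 are at 0.823 or above in every panel. Of the 7 pairs with LUM only 1 is positive in the middle panel, and all 7 are positive in the right one; LUM is shown by its brightest probe.

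These correlations differed in size between groups of pigs. The 8 RFIpl pigs alone had a median r of 0.708 with 9 of 28 pairs called, and the 8 RFIneg pigs alone a median r of 0.266 with 1 pair called, DCN with COL1A1 (r = 0.909, adjusted exact permutation p = 0.0395). The difference between the lines was not tested. The RFIpl values include RFIpl pig 6, and values for the RFIpl pigs alone without it are not given here. Without RFIpl pig 6, 10 pairs were called, 7 of them among the 13 above. Of those 10 pairs, 3 were negative and all 3 involved LUM, the strongest being LUM with VIM (r = -0.849). With LUM and the other genes as means over their probes, that pair had r = -0.0046 in the same 15 pigs, and none of the 7 pairs with LUM was called.

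Mean levels of some members were unlike in the series of sample numbers, although no member was called for series. SPARC, in contrast, averaged 3.82 below 50 and 3.80 above 50. DCN averaged 3.19 ± 0.38 in pigs with sample numbers below 50 and 2.46 ± 0.76 in those above 50 (SD, n = 8 each), and 2.20 above 50 without RFIpl pig 6. COL1A2 averaged 2.76 ± 0.30 below 50 and 2.08 ± 0.57 above 50, while LUM ran the other way, with -1.21 ± 0.17 below 50 and -0.69 ± 0.37 above 50 (SD, n = 8 each). In a limma fit with line and series, no member was called for series, 4 of the 8 genes (COL1A2, DCN, LUM and VIM) had an unadjusted p under 0.05, and the lowest adjusted p was 0.061, for LUM. Over all genes 1.95% were called for series at an adjusted p under 0.05, and over all probes 1.93%. The share of all genes at an unadjusted p under 0.05 for series is not given here. The 4 of 8 therefore has no background to be read against.

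Within the series of numbers below 50, r was 0.785 for DCN with COL1A2, 0.780 for DCN with COL1A1 and 0.878 for COL1A1 with COL1A2 (n = 8). Within the series above 50 the same pairs had r of 0.883, 0.951 and 0.839 (n = 8). By exact permutation 0 of 28 pairs were called below 50, where 3 had an unadjusted p under 0.05, and 1 above 50. After removal of the series means all 28 pairs were positive, the pairs with LUM included, and 9 pairs were called. After removal of the series means and without RFIpl pig 6, the median r was 0.045, against 0.0085 over all pairs of represented genes. Of all gene pairs, 45.8% had an r at least as high as that median, so the 28 pairs as a set were near the background. By permutation 0 of the 28 pairs were then called, and 7 had an unadjusted p under 0.05. The 3 pairs among DCN, COL1A1 and COL1A2 still had r of 0.647 to 0.728 (adjusted permutation p of 0.061 to 0.091). Of all gene pairs, 2.0% had an r as high as the lowest of them. The 3 genes were singled out for their high r over these same pigs, so this small share is not separate support. SPARC with COL1A2 lay within the range of those 3 pairs (r = 0.671, adjusted permutation p = 0.064). SPARC had r of 0.554 with DCN and 0.426 with COL1A1.

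**Figure D5:**
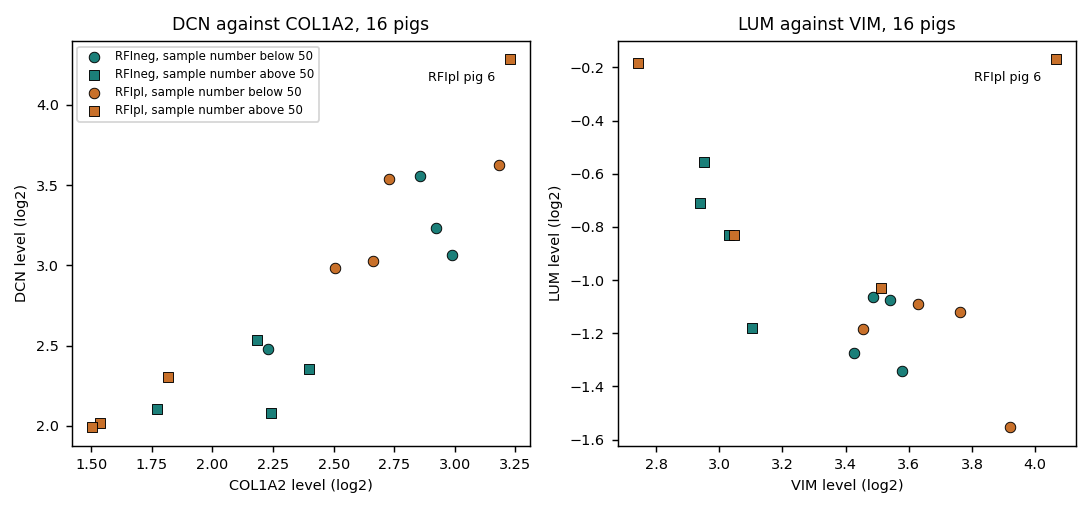
DCN against COL1A2 (left) and LUM against VIM (right), log2 levels, 1 point a pig, coloured by line, with circles for sample numbers below 50 and squares for those above 50. Pigs with high COL1A2 have high DCN (r = 0.905), and in the right panel most pigs run from high LUM and low VIM to the reverse, with RFIpl pig 6 apart and high in both.

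The 8 other genes most like COL1A2 over the 16 pigs had r of 0.820 to 0.893. They were FBN1 (fibrillin, a microfibril protein, r = 0.893), COL14A1 (a fibril-associated collagen, r = 0.875), TN-X (a tenascin, r = 0.859), GUCY1A3 and GUCY1B3 (the subunits of soluble guanylate cyclase, r = 0.845 and 0.840), TGFB3 (a TGF-beta ligand, r = 0.828), PN-1 (a protease inhibitor, r = 0.827) and DIRAS3 (a small GTPase, r = 0.820). Without RFIpl pig 6 these values were 0.786 to 0.901, and with the series means removed over all 16 pigs 0.695 to 0.819. None differed between lines, with changes of -0.26 to 0.049.

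The 8 genes most like ACTA2 had r of 0.761 to 0.861. ACTA1 (r = 0.861) and ACTC1 (r = 0.830), the skeletal and cardiac muscle actins, came first. Actin probes can be alike in sequence. ACTA2 probe A_72_P521843 shares 56 of 60 bases with A_72_P790187, named ACTA1 (r = 0.968). ACTA2 probe A_72_P627171 shares 28 of 35 overlapping bases with A_72_P762162, also named ACTA1 (r = 0.098). Whether actin probes read each other's transcripts was not tested. VCL, vinculin of cell adhesions, followed at 0.804, and MYLK, the kinase of smooth muscle myosin, at 0.761. VPREB1, PEA15, DOM3Z and DISC1 lay between 0.766 and 0.799. Without RFIpl pig 6 VCL had the highest r of all genes with ACTA2 (0.937), while r was 0.577 for MYLK and 0.555 for DISC1.

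Other genes of the matrix and of stellate cells were no more different between lines. In 7 lists of such genes, 0 tested members were called by limma. Of 8 other collagens 3 were higher and 5 lower in RFIneg (median change -0.037). COL6A3, a chain of the beaded collagen VI, averaged 0.41 ± 0.22 in RFIneg and 0.81 ± 0.56 in RFIpl livers (SD, n = 8 each, change -0.40, adjusted p = 0.945), and COL5A2, a chain of collagen V, had a change of -0.12. All 3 tested genes of collagen folding and modification had higher RFIneg means (median 0.20), among them BMP1, which removes the collagen propeptide (0.20), and P4HA1, a subunit of prolyl hydroxylase (0.48).

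Of 9 matrix glycoproteins 5 were higher and 4 lower, with a change of -0.45 for SPP1, osteopontin, and 0.097 for VTN, vitronectin. Of 11 genes of TGF-beta and PDGF signalling 6 were higher and 5 lower, with -0.41 for the ligand TGFB2 and -0.27 for the receptor TGFBR1. Of 9 genes of matrix breakdown 4 were higher and 5 lower, with -0.22 for PLAT, a plasminogen activator, and 0.24 for the protease ADAMTS1. The median changes of these lists were 0.0011, 0.035 and -0.017, near the 0.015 over all genes.

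In all, 6 other stellate cell, pericyte and fibroblast markers were tested, and 3 were higher and 3 lower. RGS5, a pericyte regulator of G protein signalling, ran between -2.37 and -0.12 with a median of -0.69 in RFIneg livers, against -2.13 to -0.64 with a median of -1.64 in RFIpl livers (change 0.69, SE 0.31, unadjusted p = 0.038 and adjusted p = 0.894 by limma). DDR2, a collagen receptor, had a change of 0.54 (SE 0.25, unadjusted p = 0.044 and adjusted p = 0.912 by limma). Neither passed the threshold. Their direction was opposite to that of most members.

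Of 10 genes of the smooth muscle contractile apparatus 3 were higher and 7 lower, with a median change of -0.14. MYL9, a light chain of smooth muscle myosin, averaged 3.32 ± 0.39 in RFIneg and 3.66 ± 0.60 in RFIpl livers (SD, n = 8 each, change -0.34, adjusted p = 0.979 by limma), and RFIpl pig 6 had its highest level, 4.94. SMTN, smoothelin, had a change of -0.23 and its highest level in RFIpl pig 2. Without RFIpl pig 6 the median of the 10 genes was -0.010, with 4 higher and 6 lower.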

How the data were processed

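Liver RNA (150 ng of total RNA per pig, labelled with Cy3) of 16 pigs was hybridised to 16 one-colour Agilent arrays. Per the file headers, the deposited intensities (gProcessedSignal) were made from the scans with Feature Extraction 10.7.3.1. The authors' deposited log2 table, made with R 2.10.0 per the submitters' processing notes, served as an alternative. Spots marked as outliers were left out, log2 intensity was taken relative to the 75th percentile of non-control spots, and spots of a probe were averaged. Probes well above background on at least 8 of 16 arrays were fitted with limma 3.58.1 in R 4.3.3, RFIneg minus RFIpl, with Benjamini-Hochberg adjustment over 30097 probes, and a gene was represented by its brightest tested probe. The script was tested on simulated data. The members, lists and tests were chosen with earlier results of these data known. Named genes are all members, the 2 with the smallest p of each list, and the 8 genes most correlated with COL1A2 and with ACTA2. Of 43603 probes, 9627 carried 1 gene symbol. Replicates are single pigs by their labels, and the number of pigs limits the precision. Pigs of the same replicate number were not treated as paired, because the labels state no pairing. Their deviations nevertheless correlated positively for all 8 numbers (0.047 to 0.395), and a fit with the replicate number as a block is given as an alternative. Sequences of probes are those in the deposited files.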

Additional observations from a re-analysis of the deposited data

Results flagged for a closer look

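In 9 of the 70 groups of 8 pigs (35 probes in each line), the highest pig stood apart from the rest by more than Dixon's critical value of 0.526 (nominally passed by about 1 in 20). Over all tested probes the highest or the lowest pig stood apart by that much for 7.34% in RFIneg and 8.34% in RFIpl. RFIpl pig 6 was the pig apart, at either end, for 5.21%. The 9 are not independent, since probes of a gene move together. In 8 of the 9 the pig was RFIpl pig 6. For ACTA2 it was at 5.95 on A_72_P070041 (the next RFIpl pig at 4.08), 2.40 on A_72_P529904 (next 0.41), 5.42 on A_72_P615057 (next 3.58), 4.20 on A_72_P627171 (next 3.09) and 4.22 on A_72_P678849 (next 2.74). For DES it was at 4.52 on A_72_P177466 (next 3.501) and -2.47 on A_72_P350098 (next -4.09), and for DCN at 1.02 on A_72_P280399 (next -0.13). The remaining one was RFIneg pig 2 at 2.79 on the same DCN probe (next 0.16).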

How the results depend on the processing

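No member gene was called between lines under any of 19 alternatives or without any 1 pig, and the median change ran between -0.25 and 0.093 under the alternatives and between -0.20 and -0.015 without 1 pig. Some directions turned. The change of COL1A2 was -0.028 with normexp and -0.066 as the mean over its probes, and that of LUM was 0.040 with array weights. With array noise as a covariate the changes were 0.037 for ACTA2, 0.13 for SPARC, 0.049 for VIM, 0.038 for DES and 0.20 for DCN. Without the 5 arrays with a measure out of range, chosen after seeing the data, they were 0.17, 0.17, 0.021, 0.0069 and 0.23. Without 1 pig the change ran between -0.073 and 0.17 for COL1A2, -0.12 and 0.060 for SPARC, -0.19 and 0.020 for DES, -0.49 and -0.12 for COL1A1, -0.43 and -0.11 for DCN, -0.27 and -0.026 for ACTA2, -0.20 and -0.0051 for LUM and -0.37 and -0.18 for VIM. The cause was not tested. Over all probes 3 were called, against 1 with the stricter filter, 0 with array noise, 7 with array weights, 0 without those 5 arrays and 2 to 5 without 1 pig.

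The 13 called gene pairs became 22 with means over probes (12 without RFIpl pig 6), 6 by Spearman, 7 with slide means removed, 0 in pigs numbered below 50, 1 above 50, 1 in RFIneg pigs alone, 3 without the 5 arrays and 6 of 10 for genes matched by symbol. They became 0 with series means removed in the 15 pigs other than RFIpl pig 6, and 0 in the 7 pigs above 50 other than it, both chosen after seeing the data. Without 1 pig 10 to 19 were called. Pathway genes called stayed at 0 in all 17 alternatives run. Deviations of pigs sharing a replicate number correlated at 0.047 to 0.395 and in 5 of 8 numbers best with each other. With the replicate number as a block 0 member genes and 4 probes in all were called, and the lowest adjusted p of a member gene was 0.677 by limma.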

Other observations

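A further 3 probes were matched to a type I collagen chain through similarity to a protein of another species and were left out of the members. Those matched to COL1A1, A_72_P020431 and A_72_P274584, had changes of 0.24 (SE 0.13) and 0.094 (SE 0.14), against -0.32 for the COL1A1 member probe. Over pigs they did not follow that probe (r = -0.286 and -0.239) or each other (r = -0.159). The probe matched to COL1A2, A_72_P053171, had a change of -0.18 (SE 0.17), with r of 0.816 to A_72_P192797 and 0.497 to A_72_P107881. Whether these probes read type I collagen transcripts was not tested.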
